A study of Mus musculus with 29 samples.

Results

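The genes of the IL12 to interferon gamma axis were followed in the peritoneum of mice carrying a disseminated gastric cancer. They are the IL12 subunits Il12a and Il12b, the IL12 receptor chains Il12rb1 and Il12rb2, the transducer Stat4, interferon gamma itself (Ifng), its receptor chains Ifngr1 and Ifngr2, and the interferon-induced transcription factor Irf1. All 9 were chosen by symbol from the count table, which lists 24421 genes, and all 9 were found in it. YTN16, a transplantable mouse gastric cancer cell line that grows in immunocompetent hosts, was injected into the peritoneal cavity of female C57BL/6J mice aged 5 to 6 weeks on day 0. The mice received PBS (untreated), an antibody to the T cell checkpoint PD1 at 10 mg/kg, an antibody to the checkpoint CTLA4 at 5 mg/kg, or both (dual immune checkpoint inhibitor treatment, dual ICI), all by intraperitoneal injection. Injections were on days 5, 8 and 12 in the mice killed on day 21 (3wk), and also on days 21 and 28 in the mice killed on day 35 (5wk). RNA came from stripped peritoneum with or without nodules, 1 library per mouse.

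At 3wk there were 5 mice without treatment and 5 with dual ICI, and at 5wk 5 untreated, 5 anti-PD1, 4 anti-CTLA4 and 5 dual ICI mice. The study excluded 1 further anti-CTLA4 mouse that had died before autopsy, so the 4 anti-CTLA4 libraries come from mice alive at 5wk. The study recorded dual ICI mice 2, 3 and 4 at 5wk as cured and mice 1 and 5 as uncured. The labels give only treatment, day and replicate number, so this split reads the mouse number as the replicate number. The study also recorded 1 cured anti-PD1 mouse, which the labels do not identify, so the anti-PD1 group was kept whole. The hosts were intact mice and YTN16 is 1 cell line, so tumour, stroma and immune cells of every mouse were measured as a mixture. In such bulk RNA, fewer cells of a type and less RNA per cell cannot be told apart.

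IL12 is a heterodimer of the p35 chain from Il12a and the p40 chain from Il12b, made mainly by activated dendritic cells and macrophages. It binds Il12rb1 and Il12rb2 on T and NK cells and acts through STAT4 to raise interferon gamma, which in turn binds Ifngr1 and Ifngr2 on most cell types and induces IRF1, antigen presentation genes and T cell attracting chemokines. p40 and the Il12rb1 chain are also shared with IL23, so their RNA alone does not identify IL12.

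Total counts per library ran from 25989217 to 31219650, with a median of 28625462. The share of counts taken by 19 skeletal muscle genes, the muscle under the peritoneum, was 22.7 to 24.5% in the 3 cured mice and 5.97 to 8.28% in the 2 uncured mice. Among the other 5wk mice it was 22.2% in untreated mouse 2, 22.4% in anti-PD1 mouse 5 and 4.50 to 16.2% in the rest. At 3wk it was 8.33 to 16.9% in untreated and 7.62 to 20.4% in dual ICI mice. Genes of gastric epithelium, the origin of the tumour, took 0.00182 to 0.00721% of counts in the cured mice and 0.00466% in anti-PD1 mouse 5, against 0.461 to 0.555% in the uncured mice and 0.0980 to 0.409% in untreated mice at 5wk. Anti-PD1 mouse 5 thus lay within the cured range, whereas the other anti-PD1 mice had 0.341 to 0.472%. Whether it is the cured anti-PD1 mouse of the study is stated neither by the labels nor by the study. Genes marking mesothelium, the peritoneum's own lining, were detected in all groups. These 7 genes took 0.00242 to 0.00971% of counts in cured mice and 0.00751 to 0.0684% in the other groups. Of the 7, 1 was at 0 counts in each of the anti-CTLA4 and uncured groups. Whether the lining alone gave these counts was not tested. The cured mice, untreated mouse 2 and anti-PD1 mouse 5 therefore stood apart from the other 5wk libraries in their share of muscle counts. In epithelial counts untreated mouse 2, at 0.0980%, was unlike the cured mice. Member values that moved most without untreated mouse 2 and anti-PD1 mouse 5 are also given without them.

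Sequences just before the start sites are shown because interferon gamma acts on many of its target genes through the GAS element, whose letters TTCNNNGAA read the same on both strands, so that a reader can see where such letters lie in the members that carry them. RefSeq windows (build GRCm38.p6, 250 bases before to 50 after the start) were at hand for 8 of the 9 members, 11 windows in all, and not for Il12rb1. GAS letters were found in 3 of these windows and in 8.30% of 32851 mouse promoter windows of the same length. The 250 bases before each of these 3 starts follow, read 5′ to 3′ on the gene's strand with the GAS letters in capitals. The Irf1 sequence is chr11:53769764-53770013 (plus strand), the Ifng sequence chr10:118440796-118441045 (plus strand) and the Il12rb2 sequence chr6:67376189-67376438 (minus strand).
Irf1: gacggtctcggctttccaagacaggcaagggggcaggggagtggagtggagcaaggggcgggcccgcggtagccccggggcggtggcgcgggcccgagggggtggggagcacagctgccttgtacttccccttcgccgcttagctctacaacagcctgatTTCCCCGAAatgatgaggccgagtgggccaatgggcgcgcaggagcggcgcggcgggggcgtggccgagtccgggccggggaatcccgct
Ifng: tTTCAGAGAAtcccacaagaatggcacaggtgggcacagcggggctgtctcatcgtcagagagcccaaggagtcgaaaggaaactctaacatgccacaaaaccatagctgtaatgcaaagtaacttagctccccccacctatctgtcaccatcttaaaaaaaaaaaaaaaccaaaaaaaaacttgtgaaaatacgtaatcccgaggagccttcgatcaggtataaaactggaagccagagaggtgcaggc
Il12rb2: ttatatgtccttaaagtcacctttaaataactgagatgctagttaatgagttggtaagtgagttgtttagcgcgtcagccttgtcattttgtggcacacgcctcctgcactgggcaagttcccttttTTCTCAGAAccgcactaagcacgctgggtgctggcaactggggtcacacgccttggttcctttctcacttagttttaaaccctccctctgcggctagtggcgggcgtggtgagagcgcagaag
The GAS letters began 90 bases before the Irf1 start, 249 bases before the Ifng start and 123 bases before the Il12rb2 start. Letters like the interferon-stimulated response element (GAAA, 2 bases of any kind, GAAA), searched on both strands, were found in 1 window, that of a later start of Stat4, as GAAAGTGAAA at 97 bases before the start, and in 3.44% of all windows. The T-box letters TCACACC, searched on both strands, were found in no member's window and in 3.98% of all. The matches did not overlap each other. A match is a description of letters and not evidence of a bound site.

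Levels within a gene are in CPM, counts divided by the library total after TMM scaling, and between genes only per kilobase of exon in GENCODE vM21. On that scale the interferon gamma receptor genes were the most abundant members, with medians over the 29 libraries of 45.4 CPM per kb for Ifngr1 and 32.2 for Ifngr2, followed by Irf1 at 18.5. The IL12 genes lay far lower, with 0.986 for Il12rb2, 0.965 for Il12a, 0.607 for Stat4, 0.566 for Il12b and 0.394 for Il12rb1. Ifng was the lowest at 0.122, and 11 of 29 libraries held 3 or fewer Ifng counts. Ifngr2 was also the steadiest member, its highest library being 1.45-fold above its lowest (95.6 to 139 CPM), whereas Il12rb1 spanned 15.7-fold and Il12b 38.7-fold. Precision therefore differed by gene, and the low counts of Ifng and Il12b limit what can be seen of them.

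The genes lie at chr3:68690644-68698547 (Il12a, plus strand), chr11:44400063-44414033 (Il12b, plus), chr8:70808449-70821424 (Il12rb1, plus), chr6:67291318-67376188 (Il12rb2, minus), chr1:51987148-52107189 (Stat4, plus), chr10:118441046-118445892 (Ifng, plus), chr10:19591949-19610229 (Ifngr1, plus), chr16:91547072-91565623 (Ifngr2, plus) and chr11:53770014-53778374 (Irf1, plus) in GRCm38. Of the 3794 exon bases of Il12rb2, 1519 overlap exons of Serbp1, an abundant RNA-binding protein gene on the opposite strand. Whether the counting used strand is not stated in the sources used here, so reads of the 2 genes cannot be told apart with certainty and Il12rb2 values are uncertain to that extent. Serbp1 lay between 276 and 453 CPM over the 29 libraries, and its Spearman correlation with Il12rb2 over them was 0.17, given as a description.

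**Figure D1:**
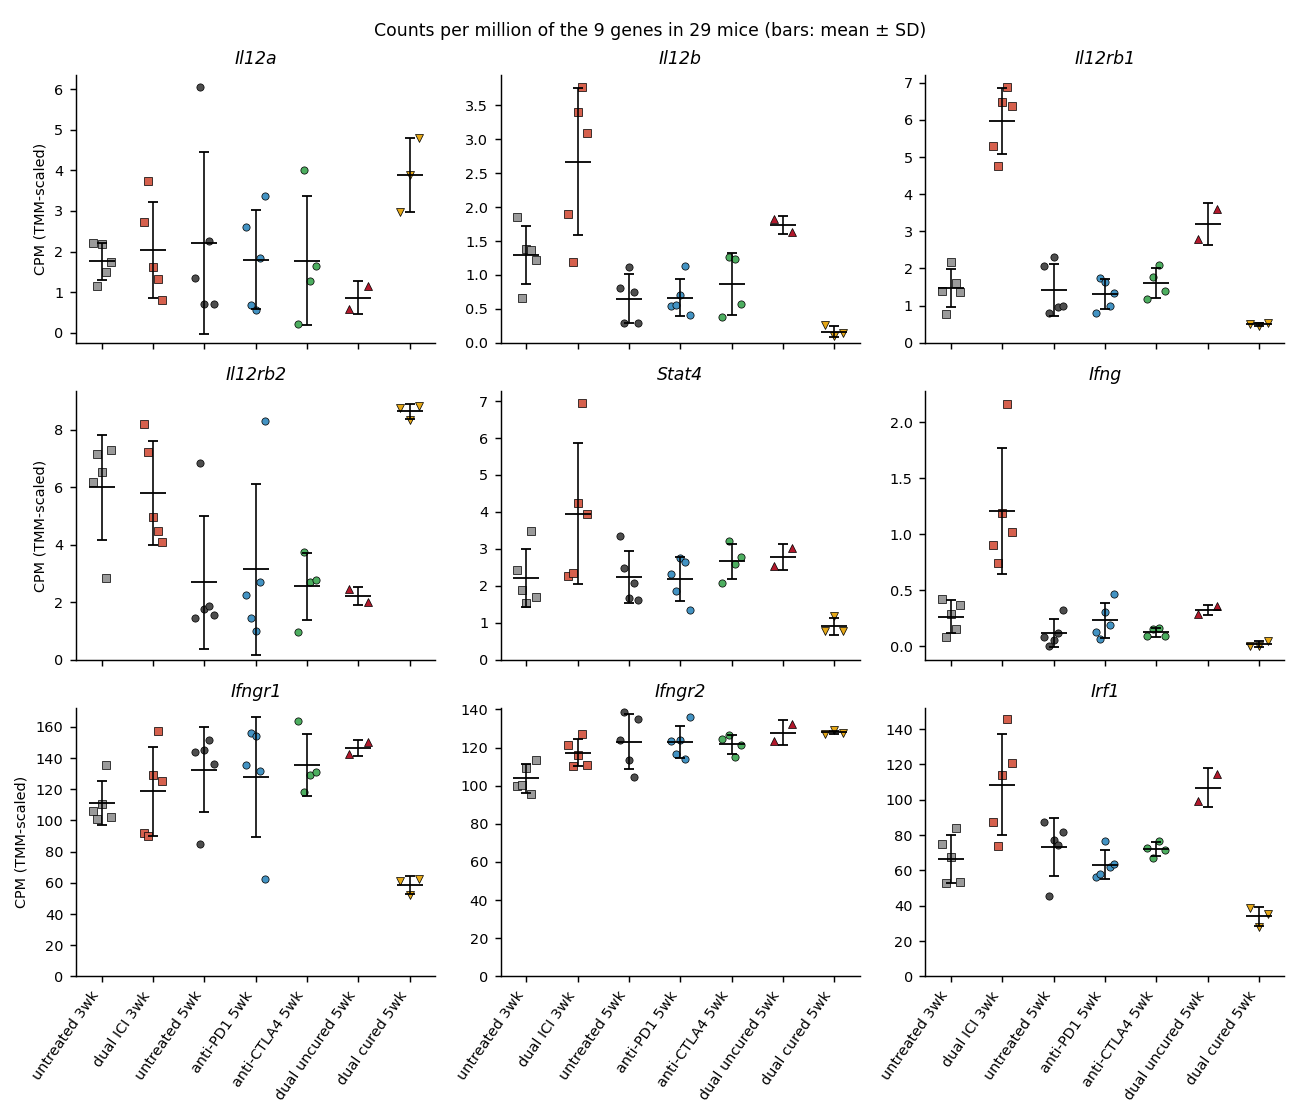
Level of each of the 9 genes in every mouse, in TMM-scaled CPM on linear axes, by group, each point being 1 library and the bar and whisker the group mean and SD. Il12rb1 and Ifng stood highest in the 5 dual ICI mice at 3wk, and the 3 cured mice were lowest in Il12b, Il12rb1, Stat4 and Irf1 and highest in Il12rb2, while in Ifngr1 anti-PD1 mouse 5 (62.2 CPM) lay among them (52.0 to 62.6 CPM).

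Ordered by group mean (± SD, with the group sizes above), Il12rb1 was highest in dual ICI mice at 3wk (5.97 ± 0.89 CPM), then in uncured mice (3.20 ± 0.57), and lowest in cured mice (0.494 ± 0.05). These 3 groups each stood clear of their neighbours in the order, whereas anti-CTLA4 (1.61 ± 0.40), untreated 3wk (1.47 ± 0.51), untreated 5wk (1.43 ± 0.70) and anti-PD1 mice (1.30 ± 0.40) overlapped. Ifng followed the same first and last places, at 1.21 ± 0.56 CPM in dual ICI mice at 3wk and 0.0161 ± 0.028 in cured mice, but from uncured mice (0.322 ± 0.046) downward every neighbour overlapped. Il12b ran from 2.67 ± 1.1 CPM in dual ICI mice at 3wk through 1.73 ± 0.14 in uncured and 1.30 ± 0.43 in untreated 3wk mice to 0.650 ± 0.36 in untreated 5wk mice, all neighbours overlapping, and was separate only in cured mice (0.166 ± 0.081).

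Irf1 was highest in dual ICI mice at 3wk and in uncured mice, 108 ± 29 and 107 ± 11 CPM, which overlapped each other. The uncured mice stood clear of the untreated 5wk mice next below them (73.1 ± 16). The dual ICI mice at 3wk did not, their lowest value being 73.7 CPM and the highest untreated 5wk value 87.6 CPM. Stat4 (3.95 ± 1.9 CPM in dual ICI mice at 3wk down to 2.18 ± 0.58 with anti-PD1) and Ifngr1 (147 ± 5.2 in uncured down to 111 ± 14 in untreated 3wk mice) overlapped between neighbours in all but the last place, held by cured mice at 0.904 ± 0.23 and 58.5 ± 5.7 CPM. Il12rb2 had the reverse order, with cured mice alone at the top (8.63 ± 0.26 CPM), overlapping values from untreated 3wk (5.99 ± 1.8) downward and uncured mice last (2.22 ± 0.32). Anti-PD1 mouse 5 (8.31 CPM) and dual ICI mouse 1 at 3wk (8.19 CPM) came close to the lowest cured mouse (8.33 CPM). Il12a was highest in cured (3.89 ± 0.91) and lowest in uncured mice (0.862 ± 0.40), the latter just clear of untreated 3wk mice (1.76 ± 0.45). The uncured values of Il12a overlapped those of untreated 5wk, dual ICI 3wk, anti-PD1 and anti-CTLA4 mice. Ifngr2 ran from 128 ± 0.90 in cured to 104 ± 7.5 CPM in untreated 3wk mice, with every neighbour overlapping.

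Dual ICI was first compared with no treatment at 3wk, which asks what both antibodies together did at the earlier time. Il12rb1, the receptor chain shared by IL12 and IL23, was the member that rose past the test across all genes. It was 1.40, 0.774, 2.18, 1.62 and 1.37 CPM in untreated mice 1 to 5 and 5.31, 4.77, 6.48, 6.90 and 6.37 CPM in dual ICI mice 1 to 5. Every dual ICI mouse stood above every untreated mouse, and the fitted increase was 4.07-fold (95% interval 2.79 to 5.95; log2 fold change 2.03, SE 0.25; adjusted p = 0.00931 by edgeR's quasi-likelihood test with Benjamini-Hochberg adjustment over 15503 genes). At that threshold 0.574% of the genes tested were called and 1 of the 9 members. Without untreated mouse 5 the call was lost at an adjusted p of 0.0533, with a log2 fold change of 2.00.

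Ifng, the effector cytokine of the axis, had 12, 2, 8, 5 and 10 counts in untreated mice 1 to 5 and 22, 20, 36, 81 and 32 counts in dual ICI mice 1 to 5. In CPM this was 0.420, 0.0774, 0.291, 0.155 and 0.371 against 0.905, 0.746, 1.19, 2.17 and 1.02. The groups did not overlap, as was the case with the dual ICI mice higher for 1.83% of the genes tested. The fitted difference was 2.20 on the log2 scale (SE 0.44, 4.59-fold), which just missed the threshold at an adjusted p of 0.0539 in edgeR. It ranged from 0.0508 to 0.143 when 1 mouse was left out and from 0.000309 (DESeq2) to 0.0607 over the other settings, among them 0.0443 when all 29 libraries shared a fit.

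The other IL12 subunit and signalling genes at 3wk did not pass the adjusted threshold. Il12b, the p40 chain, was 1.86, 0.658, 1.38, 1.37 and 1.22 CPM in untreated and 1.89, 1.19, 3.41, 3.77 and 3.09 CPM in dual ICI mice, so 4 of 5 dual ICI mice lay above all untreated mice (log2 fold change 1.05, SE 0.35, adjusted p = 0.272 in edgeR). Stat4, which carries the IL12 signal, was 1.53 to 3.48 CPM in untreated and 2.26 to 6.95 CPM in dual ICI mice, and these ranges overlapped (log2 fold change 0.86, SE 0.34, adjusted p = 0.389). Il12a and Il12rb2 gave log2 fold changes between -0.05 and 0.20. The rb1 chain and its partner thus gave different values in the same mice, the Il12rb1 to Il12rb2 ratio per kb of exon having a median of 0.210 in untreated (0.0999 to 0.528) and 1.21 in dual ICI mice (0.599 to 1.43), a description without a test.

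Among the receptors and the target of interferon gamma, Irf1 was 74.7, 52.7, 67.6, 84.2 and 53.5 CPM in untreated and 87.3, 73.7, 114, 146 and 121 CPM in dual ICI mice at 3wk. Only dual ICI mouse 2 lay within the untreated range, and the log2 fold change of 0.72 (SE 0.20) had an adjusted p of 0.167 in edgeR and 0.0376 in DESeq2. Ifngr1 overlapped between the groups at 101 to 135 CPM and 89.8 to 158 CPM, and Ifngr2 had a log2 fold change of 0.18 (adjusted p = 0.570). At an unadjusted p under 0.05, 5 of 9 members passed against 10.7% of all genes tested, and the members' median log2 fold change was 0.72 against 0.02 for all genes.

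Genes downstream of interferon gamma were described through a list of 32 induced genes. At 3wk all 32 had positive log2 fold changes, 9 of them rose past the adjusted threshold and none fell. The median was 1.00, with a range of 0.44 to 2.51, and 15 of the 32 did not overlap between the groups. The called genes named by size were Iigp1 and Igtp, GTPases that act against intracellular pathogens, with log2 fold changes of 1.63 (SE 0.32, adjusted p = 0.0478) and 1.35 (SE 0.23, adjusted p = 0.0319), and Psmb9, an immunoproteasome subunit, with 1.10 (SE 0.15, adjusted p = 0.0120). The MHC class II genes H2-Eb1 and H2-Aa followed with 1.08 (SE 0.14, adjusted p = 0.0119) and 1.07 (SE 0.14, adjusted p = 0.0120). The count of 9 depended on single mice: it was 0 without untreated mouse 5, 2 without untreated mouse 1, 4 without untreated mouse 2 or 3, 5 without untreated mouse 4, 3 without dual ICI mouse 3 and 4 without dual ICI mouse 5, and it was 27 in DESeq2.

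Of 13 genes of interferon gamma receptor signalling and its inhibitors, 1 was called at 3wk, and the list's median log2 fold change was 0.14. It was Irf8, an interferon-induced factor of the monocyte and dendritic cell lineages, at 69.9 ± 13 CPM in dual ICI and 35.4 ± 7.2 CPM in untreated mice (SD, n = 5 each; log2 fold change 0.99, SE 0.17, adjusted p = 0.0322), a call lost when any 1 of 8 of the 10 mice was left out (dual ICI mouse 3, 4 or 5 or any untreated mouse). Of 17 IL12 family and type 1 helper partner genes, 16 were tested and none was called (0 in edgeR with 4 at an unadjusted p under 0.05, and 2 called by DESeq2). The largest value there was for Il27, the p28 chain of the related cytokine IL27, at 0.972 ± 0.36 CPM against 0.303 ± 0.16 CPM (log2 fold change 1.68, SE 0.40, adjusted p = 0.0973), followed by Tbx21, the type 1 helper master regulator, at 0.70 (adjusted p = 0.242).

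Markers of other cell types moved with these values at 3wk. Both CD8 T cell genes rose, Cd8a with a log2 fold change of 2.31 (SE 0.35, adjusted p = 0.0193) and Cd8b1 with 2.53 (SE 0.39, adjusted p = 0.0222). All 10 T cell genes had positive values, 2 of them called, with a median of 1.22. The mean log2 CPM of the T cell list was 0.794 to 1.79 in untreated and 2.22 to 2.78 in dual ICI mice, and no defining marker was at 0 counts. None of 8 conventional dendritic cell genes was called (median 0.53), none of the 5 NK cell genes tested (median 0.67), and none of 19 skeletal muscle genes (median 0.05). All 10 macrophage genes were positive (median 0.55, 7 at an unadjusted p under 0.05), while 7 of 8 adipocyte genes (median -0.80, 5 at an unadjusted p under 0.05) and 6 of 6 mesothelium genes tested (median -0.50) were negative, none of these 3 lists holding a called gene. One of 14 gastric epithelium genes tested was lower (median -0.15). The macrophage and adipocyte scores, like that of T cells, did not overlap between the groups, at 5.83 to 5.94 and 4.75 to 5.54 in untreated and 6.03 to 6.93 and 3.55 to 4.72 in dual ICI mice. The part of these cell types in the Il12rb1 and Ifng values was not tested.

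**Figure D2:**
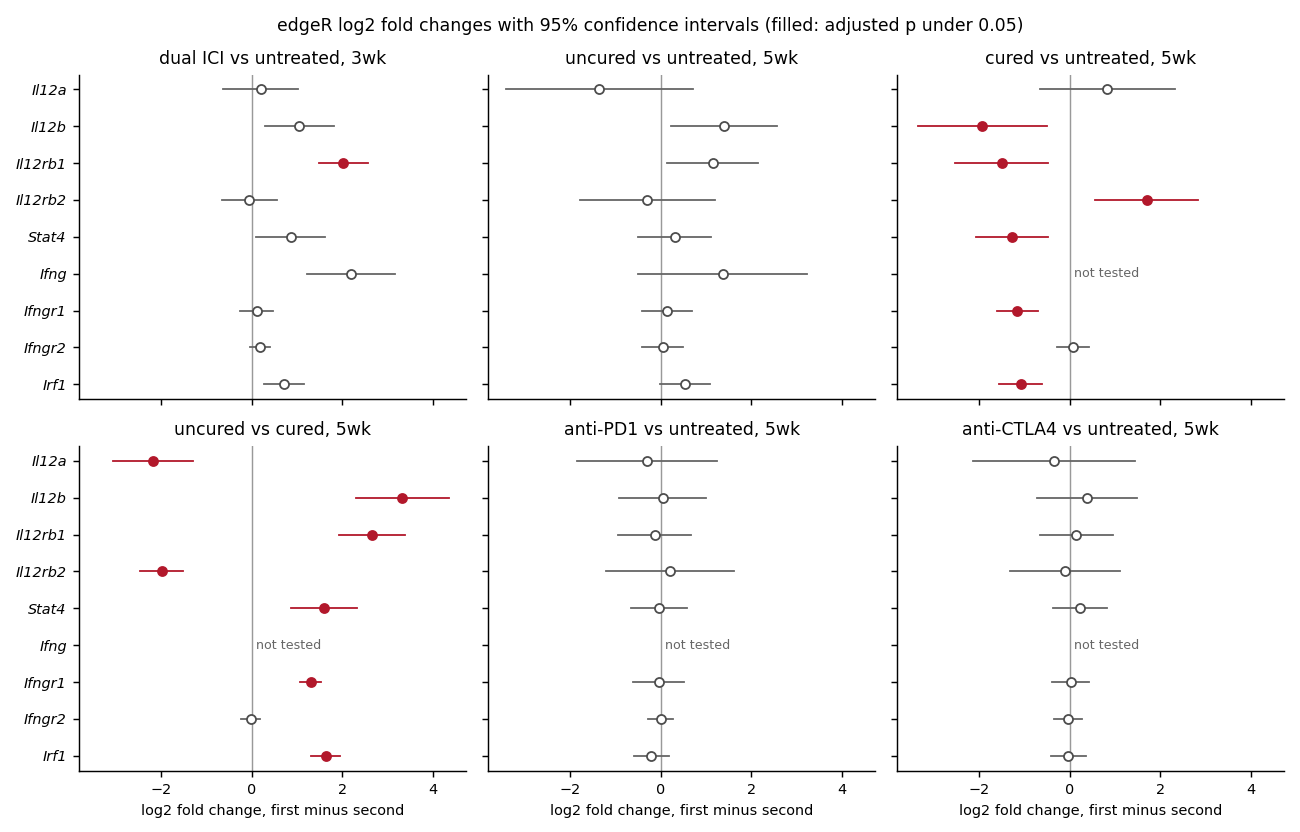
Log2 fold change of each member with its 95% interval in 6 comparisons, first group minus second, from edgeR; filled points had an adjusted p under 0.05. Il12rb1 alone was filled at 3wk, no member was filled for uncured, anti-PD1 or anti-CTLA4 against untreated mice, and 6 and 7 members were filled in the comparisons with the cured mice.

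At 5wk the antibodies given alone were compared with no treatment. No member passed the test in either comparison: 0 of 8 tested against 0% of 15640 genes for anti-PD1 and 0 of 8 against 0% of 15781 genes for anti-CTLA4 in edgeR, where 205 (1.31%) and 128 genes (0.811%) had an unadjusted p under 0.05, none of them a member, and DESeq2 called no member. The members' log2 fold changes lay between -0.31 and 0.20 with anti-PD1 and between -0.35 and 0.38 with anti-CTLA4. The values of Il12a and Il12rb2 depended on single mice. Without untreated mouse 2 and anti-PD1 mouse 5, Il12a went from -0.31 to 0.19 and Il12rb2 from 0.20 to 0.16 with anti-PD1. With anti-CTLA4, Il12a went from -0.35 to 0.50 and Il12rb2 from -0.11 to 0.61, and no member was called. Il12rb1 was 0.804 to 1.74 CPM with anti-PD1, 1.19 to 2.08 CPM with anti-CTLA4 and 0.813 to 2.32 CPM in untreated mice, and these ranges overlapped. Ifng fell under the low-count filter of the main edgeR test, with 2 to 10 counts per library for anti-PD1, 3 to 5 for anti-CTLA4 and 0 to 11 in untreated mice. Settings that could test it were DESeq2, no filter on low counts and all 29 libraries in a fit. There its log2 fold change was 0.84 to 0.92 with anti-PD1 and -0.008 to 0.017 with anti-CTLA4, none called.

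Taken as a single group, which needs only the labels, the 5 dual ICI mice at 5wk showed no member past the test either. None of 8 members tested was called, beside 0% of 15588 genes, with 1071 genes (6.87%) and no member at an unadjusted p under 0.05 and 45 genes called by DESeq2. Il12rb2 had the highest fold change at 1.17 on the log2 scale (adjusted p = 0.634), and without untreated mouse 2 at 1.90 (adjusted p = 0.358). Its 5 values, in mice 1 to 5, were 2.44, 8.75, 8.33, 8.81 and 1.99 CPM, so the group held 3 high and 2 low mice. The mice recorded as cured and uncured did not overlap in 8 of the 9 members, all but Ifngr2. This held for 81.1% of the genes tested between them, so it shows nothing particular to the members. They are compared apart below because the study recorded their outcome.

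In the 2 uncured mice several members were above untreated mice, without a call. In uncured mice 1 and 5, Il12b was 1.83 and 1.64 CPM against 0.801, 0.285, 1.11, 0.756 and 0.294 CPM in untreated mice (log2 fold change 1.39, SE 0.52). Il12rb1 was 2.79 and 3.60 CPM against 2.06, 0.813, 2.32, 0.955 and 0.998 CPM (1.15, SE 0.45), and Irf1 was 99.1 and 115 CPM against 87.6, 45.2, 77.0, 74.3 and 81.5 CPM (0.54, SE 0.25). Both uncured mice lay above all 5 untreated mice for these 3 members, which held for 9.22% of the 16156 genes tested. Every member's adjusted p was 0.734 or higher in edgeR, 0 of 9 members and 0% of the genes were called, 787 genes (4.87%), among them Il12b and Il12rb1, had an unadjusted p under 0.05, and DESeq2 called 17 genes.

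Ifng in the uncured mice was 0.289 and 0.355 CPM from 9 and 13 counts, against 0.0859, 0, 0.0586, 0.119 and 0.323 CPM in untreated mice at 5wk. Untreated mouse 5 lay between the uncured mice, so the groups overlapped, and the log2 fold change was 1.37 with an SE of 0.83. Without untreated mouse 5 it was 2.20, and leaving out each other mouse in turn gave 1.11 to 1.53, none called. Il12a, the p35 chain, went the other way at 0.578 and 1.15 CPM against 0.704 to 6.06 CPM (log2 fold change -1.36, SE 0.91). That value rested on untreated mouse 2, at 6.06 CPM, and was -0.51 without it. The Il12b to Il12a ratio per kb was 1.24 and 2.74 in the uncured mice and had a median of 0.360 in untreated mice (0.0406 to 1.37), so these ranges overlapped as well.

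All 32 interferon gamma-induced genes had positive values in uncured against untreated mice, with none called. Their median log2 fold change was 0.71 against -0.01 for all genes tested, and 17 had an unadjusted p under 0.05, a level reached upward by 2.74% of all genes. Ciita, the master regulator of MHC class II, was 54.0 ± 5.6 CPM (SD, n = 2) against 24.8 ± 7.5 CPM (n = 5), and Nlrc5, its class I counterpart, 87.8 ± 11 CPM against 41.8 ± 14 CPM. Nos2 and Ido1, which consume arginine and tryptophan, gave 1.14 and 2.19 on the log2 scale, Ido1 with an SD as large as its mean in the uncured mice (9.91 ± 11 CPM). Cd8a and Cd8b1 gave 1.43 and 1.58, the T cell list had a median of 1.00, and the skeletal muscle list a median of -1.12 with 19 of 19 genes negative and none called. The part of either in the members' values was not tested.

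**Figure D3:**
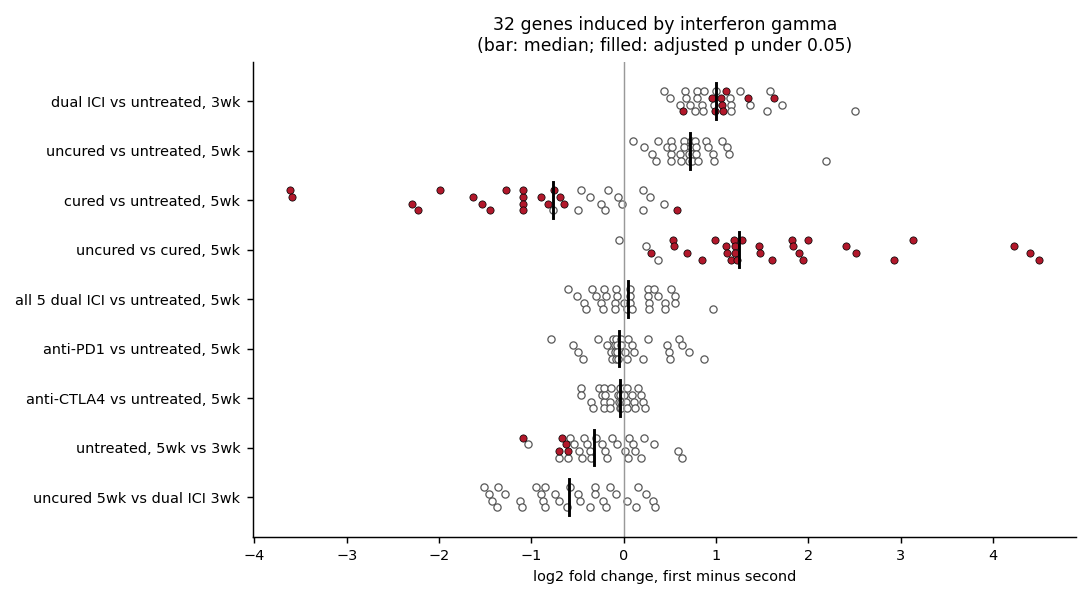
Log2 fold change of each of the 32 interferon gamma-induced genes in 9 comparisons, first group minus second; a filled point had an adjusted p under 0.05 in edgeR and the bar is the median. The medians were 1.00 for dual ICI against untreated mice at 3wk, 0.71 for uncured and -0.76 for cured against untreated mice at 5wk.

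The 3 cured mice differed from untreated mice in most members, 5 of them lower and 1 higher. The untreated mice are the same 5 as in the comparison with uncured mice. Ifngr1, the ligand-binding receptor chain, was 61.0, 52.0 and 62.6 CPM in cured mice 2, 3 and 4 against 144, 84.9, 145, 152 and 136 CPM in untreated mice (log2 fold change -1.16, SE 0.20, adjusted p = 0.00193 in edgeR). Irf1 was 38.5, 27.7 and 35.5 CPM against 45.2 to 87.6 CPM (-1.09, SE 0.21, adjusted p = 0.00363). Neither pair of groups overlapped, and both calls held whichever mouse was left out. Of the 8 members tested 6 were called, beside 44.7% of 15816 genes, 26.7% lower and 18% higher, so calls of this kind were common in this comparison.

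The IL12 side fell in the cured mice apart from Il12rb2 and Il12a. Il12b was 0.256, 0.0974 and 0.145 CPM, from 5, 2 and 3 counts, against 0.285 to 1.11 CPM (log2 fold change -1.93, SE 0.64, adjusted p = 0.0334). Il12rb1 was 0.512, 0.438 and 0.533 CPM against 0.813 to 2.32 CPM (-1.51, SE 0.46, adjusted p = 0.0251), and Stat4 was 0.768, 1.17 and 0.775 CPM against 1.61 to 3.35 CPM (-1.28, SE 0.35, adjusted p = 0.0165). These 3 genes did not overlap between the groups, as for 26.9% of genes on the lower side, but their calls rested on few mice. Il12b was lost without cured mouse 2, 3 or 4 (adjusted p = 0.0538, 0.120 and 0.106). Without untreated mouse 1, 3 or 4 it fell under the filter on low counts and was not tested. Il12rb1 was lost without cured mouse 2, 3 or 4 or untreated mouse 1 or 3 (0.0509 to 0.0871), and Stat4 without cured mouse 2 or 4 (0.0677 and 0.0712).

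Il12rb2, the chain that signals through STAT4, was higher in the cured mice at 8.75, 8.33 and 8.81 CPM, against 1.43, 6.83, 1.76, 1.87 and 1.56 CPM in untreated mice (log2 fold change 1.70, SE 0.51, adjusted p = 0.0234). The groups did not overlap, as for 20.3% of genes on the higher side, and untreated mouse 2 was the nearest. The call was lost without cured mouse 2, 3 or 4 or untreated mouse 3 or 5 (adjusted p = 0.0513 to 0.0643), whereas without untreated mouse 2 the log2 fold change was 2.42 (adjusted p = 1.06e-05). Il12a was 2.97, 3.90 and 4.79 CPM against 1.35, 6.06, 0.704, 2.27 and 0.705 CPM, with untreated mouse 2 above all cured mice (0.83, SE 0.67, adjusted p = 0.327). Without that mouse the log2 fold change of Il12a was 1.68 and its adjusted p 0.00749. Ifngr2 did not pass the test at 0.08 (95% interval -0.27 to 0.42, adjusted p = 0.709).

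Ifng had 0, 0 and 1 count in the cured mice, under the filter of the test, so its values are given with counting error only. Against the single count of the 3 cured mice, the summed counts scaled by library size were 7.55-fold higher in untreated mice (19 counts; exact 95% interval 1.20 to 314) and 19.7-fold higher in uncured mice (22 counts; 3.18 to 813). The ratio was 12.8 for anti-PD1 (31 counts; 2.13 to 521) and 7.28 for anti-CTLA4 mice (15 counts; 1.12 to 307). The intervals are wide because they rest on 1 count, and they hold no spread between mice. Untreated mouse 5 gave 11 of the 19 untreated counts, and without it the ratio was 4.09 (0.548 to 181), an interval that includes equal levels. The interval of anti-CTLA4 mice also did so without mouse 2 or 3 (from 0.987 and 0.925). In the 3 settings that could test Ifng (DESeq2, no filter on low counts, and all 29 libraries in a fit), it was called higher in uncured than in cured mice (adjusted p = 0.0382, 0.0126 and 0.00671) and was not called between cured and untreated mice (0.195, 0.178 and 0.0649).

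Of the 32 interferon gamma-induced genes, 18 were lower and 1 was higher in cured than in untreated mice, with a median log2 fold change of -0.76 against -0.05 for all genes. The T cell attracting chemokines were the most reduced, Cxcl10 at 1.13 ± 0.17 CPM in cured (SD, n = 3) and 14.2 ± 4.4 CPM in untreated mice (n = 5; log2 fold change -3.61, SE 0.31, adjusted p = 0.000128) and Cxcl9 at 3.28 ± 1.3 CPM and 40.4 ± 12 CPM (-3.60, SE 0.35, adjusted p = 0.000153). Ido1, Cxcl11 and Nos2 followed at -2.30, -2.23 and -1.99. Receptor signalling gave 4 lower and 2 higher genes of 13, the suppressors Socs3 (-1.39, SE 0.21) and Socs1 (-0.80, SE 0.21), Irf8 (-1.12) and the phosphatase Ptpn6 (-0.98) being lower and the phosphatase Ptpn11 higher (0.52, SE 0.16). Of the IL12 family and partner list, 6 genes were lower and 3 higher of 16 tested, with Il18rap, Il18 and Il18r1 of the partner cytokine IL18 at -3.14, -2.58 and -2.14. Il23a, the p19 chain of IL23, was 0.0162 ± 0.028 CPM against 1.20 ± 0.38 CPM and Eomes, a T-box factor of CD8 T and NK cells, 0.0512 ± 0.089 CPM against 2.10 ± 0.71 CPM, both called lower. In both lists the counts lie near the shares of 26.7% lower and 18% higher over all genes tested, so they show nothing particular to these lists.

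Tissue composition also differed between cured and untreated mice. Of the gastric epithelium list, 14 of 15 genes tested were lower (median log2 fold change -6.53), 4 of the list's 18 genes being at 0 counts in the cured mice, and 19 of 19 skeletal muscle genes were positive with 5 called (median 1.34). All 6 neutrophil genes tested were lower (median -3.94), as were 4 of 6 mesothelium genes (median -2.85), 3 of 8 conventional dendritic cell genes and 2 of 4 NK cell genes. The T cell list had 6 genes lower and 1 higher of 10, and neither Cd8a nor Cd8b1 was called (-0.68 and -0.71). The near absence of epithelial counts, the lower neutrophil genes and the larger share of muscle cannot be told apart from the outcome in these libraries.

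Set against each other, the uncured and cured mice differed in 7 of the 8 members tested, beside 70% of 15796 genes. Il12b, Il12rb1, Irf1, Stat4 and Ifngr1 rose from cured to uncured mice by a log2 fold change of 3.33 (SE 0.45), 2.66 (SE 0.32), 1.63 (SE 0.14), 1.59 (SE 0.32) and 1.30 (SE 0.10), against 36.9% of genes called higher. Il12a and Il12rb2 were lower at -2.18 (SE 0.39) and -1.99 (SE 0.21), against 33.1% of genes called lower, and the adjusted p of these 7 in edgeR was at most 0.00205. All 7 stayed called whichever mouse was left out, though leaving out 1 uncured mouse leaves a single one, assumed to vary like the cured mice. With all 29 libraries in a fit Il12a missed the threshold at 0.0548. Within the IL12 pair and the IL12 receptor pair the chains moved in opposite directions, the Il12rb1 to Il12rb2 ratio per kb being 0.0486 to 0.0559 in cured and 1.06 and 1.67 in uncured mice, and the Ifngr1 to Ifngr2 ratio 0.534 to 0.648 against 1.50 and 1.53. Of the 32 interferon gamma-induced genes 29 were higher in the uncured mice, with a median of 1.25. Tissue markers differed as well, with 19 of 19 skeletal muscle genes called lower in the uncured mice (median -2.56). Called higher were 12 of 14 gastric epithelium genes tested (median 6.43) and 6 of 6 neutrophil genes tested (median 4.39). The T cell list had 8 genes called higher and 1 lower of 10, and every other marker list also held called genes. The part of composition in the members' values was not tested.

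Time was compared within untreated mice, to ask whether the axis changed between 3wk and 5wk. Dual ICI mice at 3wk were set against only the uncured dual ICI mice at 5wk, so that comparison, given below, is not of time alone. The 3wk and 5wk libraries also belong to 2 separate library number series, so that time and series cannot be told apart. In untreated mice none of 8 members tested was called, beside 10.8% of 15604 genes (0 in edgeR and also in DESeq2, with 2 members at an unadjusted p under 0.05 beside 30.1% of genes). Il12rb2 was 6.17, 7.16, 6.51, 2.83 and 7.27 CPM at 3wk, against 1.43 to 6.83 CPM at 5wk (log2 fold change -1.16, SE 0.46, adjusted p = 0.120), and Il12b gave -0.99 (adjusted p = 0.127). Without untreated mouse 2 at 5wk, Il12rb2 was lower at -1.87 (adjusted p = 0.00187) and Ifngr1 higher at 0.37 (adjusted p = 0.0294, from 0.25 with all mice). Of the 32 induced genes 5 were lower at 5wk, among them Gbp6 at -1.10 (SE 0.23, adjusted p = 0.0155), and none was higher. Receptor signalling had 2 genes lower and none higher of 13, among them Jak1, a kinase bound to the interferon gamma receptor, at -0.54 (SE 0.14, adjusted p = 0.0336). The IL12 family and partner list had none lower and 1 higher of 15 tested, Gadd45b, a stress-inducible gene, at 0.63 (SE 0.15, adjusted p = 0.0246). Of the markers, 2 of 5 neutrophil and 2 of 15 gastric epithelium genes tested were higher (medians 0.87 and 0.81), and their part in these values was not tested.

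From dual ICI mice at 3wk to uncured dual ICI mice at 5wk, 3 members had lower values without overlap and none passed the threshold. The 3wk mice had no recorded outcome, whereas the uncured mice were selected by theirs and had received further antibody injections. Time, library series, outcome and these injections cannot be told apart in this comparison or in the interaction below. Ifng gave -1.91 on the log2 scale (SE 0.53, adjusted p = 0.0655), Il12rb2 -1.40 (adjusted p = 0.0566) and Il12rb1 -0.91 (adjusted p = 0.0644). The groups did not overlap downward for 17.8% of 16135 genes, and 5.31% were called but no member. DESeq2 called all 3 (adjusted p = 0.00936, 0.00261 and 0.00599), as did edgeR without dual ICI mouse 4 at 3wk (0.0272, 0.0202 and 0.0392). In edgeR none of the 3 was called in the other 6 fits that left out 1 mouse, where the adjusted p reached 0.353, 0.361 and 0.378. Tissue markers moved in this comparison too, all 19 skeletal muscle genes being negative (median -1.43, 1 called and 9 at an unadjusted p under 0.05) and 14 of 15 gastric epithelium genes tested positive (median 1.12, 3 called). Muscle genes took 7.62 to 20.4% of the counts in dual ICI mice at 3wk and 5.97 and 8.28% in the uncured mice, and their part in the Il12rb2 value was not tested. The induced genes had 26 of 32 negative values, none called in edgeR, with a median of -0.59, Gbp6 and Iigp1 at -1.46 and -1.43, and with 5 called by DESeq2. Whether the difference between dual ICI and untreated mice changed from 3wk to uncured mice at 5wk was tested by the interaction, which called 0% of 16542 genes (1050 or 6.35% at an unadjusted p under 0.05, none a member, and 1 gene by DESeq2), with Ifng at -0.81 (SE 0.95, adjusted p = 0.819) and Il12rb1 at -0.87 (adjusted p = 0.707).

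Since composition varied from mouse to mouse, members were also set against marker lists across mice, as the mean log2 CPM of a list. This was done separately at 3wk (10 mice) and at 5wk (14 mice, leaving out the cured mice, untreated mouse 2 and anti-PD1 mouse 5, which stood apart). Of 198 relations 47 had an adjusted permutation p under 0.05 for Pearson's r. Ifngr1 fell with the skeletal muscle score at 3wk (r = -0.957, permutation p = 2e-05, adjusted 0.00264; rho = -0.952) and at 5wk (r = -0.720, p = 0.00343, adjusted 0.0226; rho = -0.697, p = 0.00708). Il12rb2 rose with it at 3wk (r = 0.893, p = 0.00037, adjusted 0.00579; rho = 0.952, p = 0.00012) and at 5wk (r = 0.767, p = 0.00146, adjusted 0.0120; rho = 0.723, p = 0.00459). Without the 2 mice farthest from the median muscle score r was -0.921 and -0.891 for Ifngr1 and 0.923 and 0.808 for Il12rb2. On plain library totals the 5wk relation of Il12rb2 lost its call (r = 0.635, adjusted permutation p = 0.0635), a setting chosen after seeing the data.

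**Figure D4:**
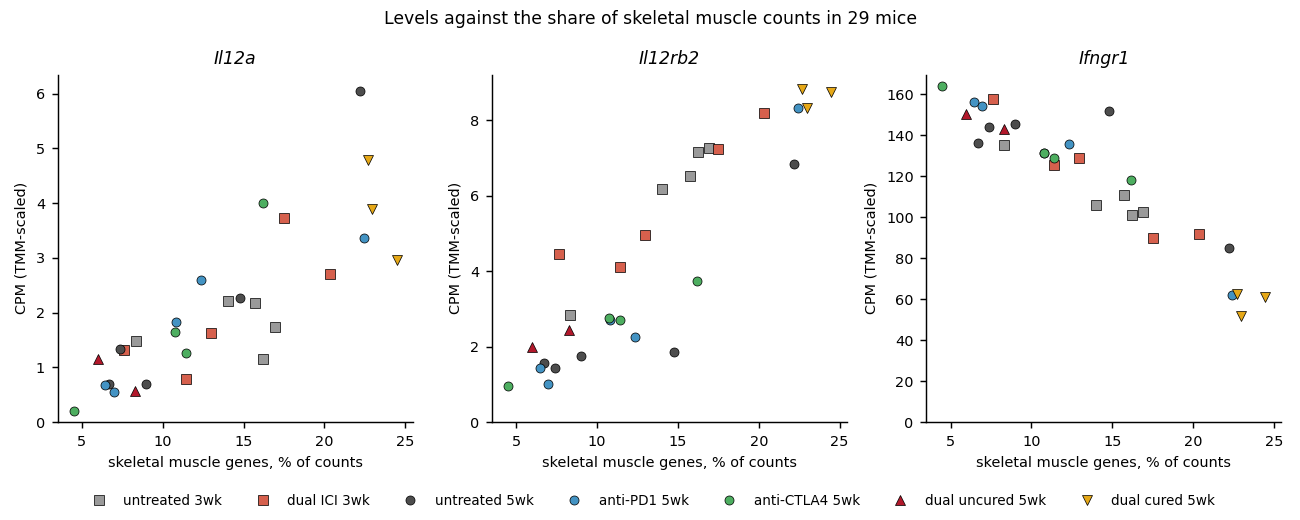
Il12a, Il12rb2 and Ifngr1 (CPM) against the share of counts from 19 skeletal muscle genes (percent) in each of the 29 mice, coloured by group. The cured mice, untreated mouse 2 and anti-PD1 mouse 5 at 5wk sit together at shares of 22.2 to 24.5%, with high Il12rb2 and low Ifngr1.

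Muscle was not the only list these members followed. Ifngr1 rose with the neutrophil score at 3wk (r = 0.918, permutation p = 0.00026, adjusted 0.00504; rho = 0.915; 0.942 without the 2 farthest mice), and Il12rb2 fell with it at 3wk (r = -0.761, adjusted permutation p = 0.0438) and at 5wk (r = -0.683, adjusted permutation p = 0.0378). At 5wk Il12rb2 also rose with the adipocyte score (r = 0.683, adjusted permutation p = 0.0388). Il12a followed the muscle score at 5wk (r = 0.889, permutation p = 4e-05, adjusted 0.00264; rho = 0.851, p = 0.00021; r = 0.835 without the 2 farthest mice) and nearly as closely the adipocyte score (r = 0.826, permutation p = 0.0002, adjusted 0.00504; rho = 0.785; 0.779 without the 2 farthest), while for muscle at 3wk r was 0.607 (permutation p = 0.0620, adjusted 0.180). With the muscle score Ifngr2 gave an r of 0.057 at 3wk and -0.435 at 5wk, with adjusted p above the threshold at both times. Ifngr2 did pass the threshold at 3wk with the adipocyte score (r = -0.804, adjusted permutation p = 0.0308). It also passed there with the T cell score, whose r is left out for the reason given below. Il12b followed the conventional dendritic cell score at 3wk (r = 0.874, permutation p = 0.00100, adjusted 0.0104; rho = 0.830, p = 0.00473; 0.796 without the 2 farthest) and at 5wk (r = 0.835, permutation p = 0.00023, adjusted 0.00504; rho = 0.833, p = 0.00045; 0.754). It followed other lists about as closely, at 3wk the adipocyte (r = -0.872, adjusted permutation p = 0.0120), neutrophil (0.789, adjusted 0.0378) and NK cell scores (0.760, adjusted 0.0407), and at 5wk the T cell score (0.789, adjusted 0.00839). At 3wk the adipocyte score did not overlap between untreated and dual ICI mice. The conventional dendritic cell scores overlapped only between 2.28 and 2.30. The 3wk values of r with these 2 lists therefore also hold the difference between the treatment groups. Irf1 followed the CD8 T cell score at 5wk (r = 0.818, permutation p = 0.00049, adjusted 0.00693), but r was 0.518 without the 2 farthest mice and rho was 0.644, so this relation leaned on few mice. Other lists also passed for Irf1. At 5wk they were the NK cell (r = 0.767, adjusted permutation p = 0.0120) and T cell scores (0.745, adjusted 0.0185). Without the 2 farthest mice r was 0.539 and 0.378. At 3wk they included the NK cell (0.872, adjusted 0.00579) and neutrophil scores (0.807, adjusted 0.0298). Stat4 passed at 3wk with the neutrophil (0.869, adjusted 0.0117) and NK cell scores (0.848, adjusted 0.0184), among others. The T cell and CD8 T cell scores at 3wk, and the levels of Il12rb1 and Ifng themselves, fell into 2 clusters, the untreated and the dual ICI mice, so no r is given there. Each set of mice mixes treatment groups of at most 5, and members and scores share the library and its scaling.

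**Figure D5:**
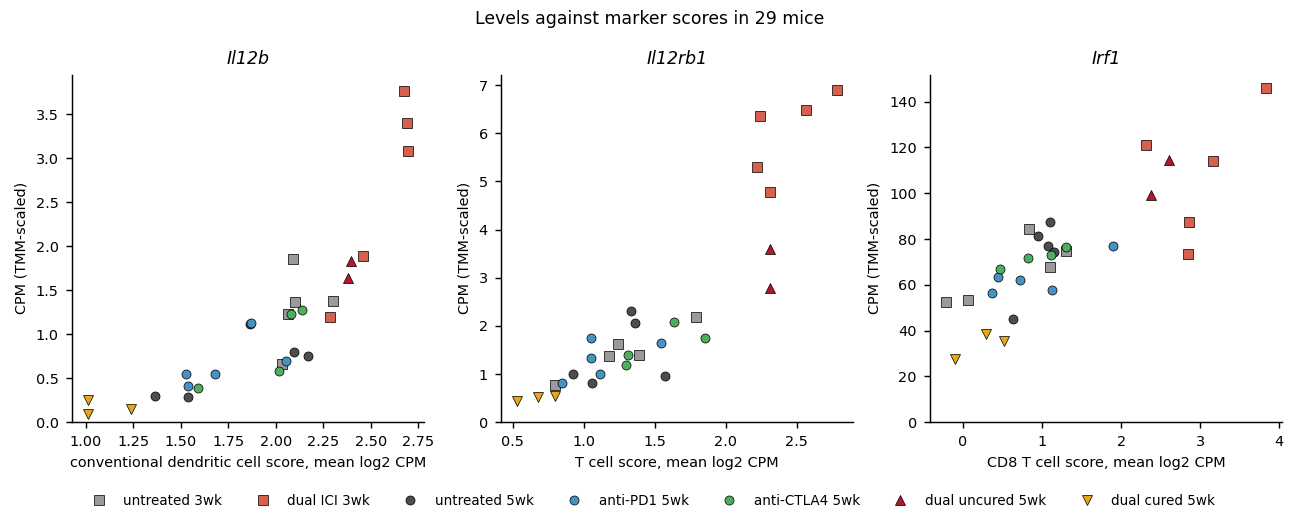
Il12b, Il12rb1 and Irf1 (CPM) against the mean log2 CPM of the conventional dendritic cell, T cell and CD8 T cell lists, each point being 1 of the 29 mice, coloured by group. In the Irf1 panel the uncured mice (99.1 and 115 CPM) are the highest of the 5wk mice, and in the Il12rb1 panel the dual ICI mice at 3wk (4.77 to 6.90 CPM) lie above all others.

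The genes most like 3 of the members were read from Spearman's rho over the 29 libraries, as descriptions in which all genes share depth and composition. For Ifng they were Fam26f (0.86), Tgtp2 (0.83), Tgtp1 (0.82), Psmb9 (0.81) and Gm12250 (0.80). For Irf1 they were Gbp8 (0.94), H2-T10 (0.94), Batf2 (0.93), Parp9 (0.93) and Nlrc5 (0.92), and for Stat4 Mefv (0.88), Ccl7 (0.88), Il1b (0.85), Plek (0.85) and Mfsd2a (0.85). Tgtp1 and Tgtp2 are near-identical copies that may share reads. Psmb9 and Nlrc5 are in the list of interferon gamma-induced genes above.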

How the data were processed

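Per the labels and the submitters' processing notes, the authors aligned reads to mm10 with STAR 2.7.0f and made raw gene counts with featureCounts 1.6.4, deposited as 1 table with a column for each of 29 libraries; the study's text names HTSeq instead, and the strand setting is not given in the sources used here. The counts were not normalized. Genes were tested on these counts with edgeR 4.0.16 (R 4.3.3) by the quasi-likelihood test, two-sided, with TMM scaling, filterByExpr by group and only the groups compared in the fit. A gene was called at an adjusted p (Benjamini-Hochberg, all genes tested) under 0.05. DESeq2 1.42.0, other scalings, filters and sample sets were alternatives, and the pipeline was tested on simulated data. Members, lists of pathway and marker genes and the tests were chosen with earlier results of these data known, so no list is independent evidence. From each list, genes were named by size of fold change among those called, then by p, up to 5. One gene of the receptor signalling list is included in its counts but not reported here by name. Correlations used log2 CPM with a prior count of 2, 100000 permutations (two-sided, scipy 1.17.1) and Benjamini-Hochberg adjustment over 198 relations. Counting ratios of Ifng use exact 95% intervals for counting error only. The mice are separate animals, so p-values hold the spread between mice. Reads were not traced to molecules, and a total near 28625462 counts leaves Ifng at the detection limit in many libraries.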

Additional observations from a re-analysis of the deposited data

Results flagged for a closer look

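Among 54 sets of 4 or 5 mice, 1 for each gene and label group, 6 held a mouse far from the others, where chance gives about 1 in 20. All 6 were for Il12rb2 and Ifngr1, and they came from the same 3 mice. Il12rb2 was 8.31 CPM in anti-PD1 mouse 5 (the next highest of that group being 2.70), 6.83 CPM in untreated mouse 2 at 5wk (next 1.87) and 2.83 CPM in untreated mouse 4 at 3wk, which was the lowest (next 6.17). Ifngr1 was 62.2 CPM in anti-PD1 mouse 5 and 84.9 CPM in untreated mouse 2 at 5wk, the lowest of their groups (next 131 and 136), and 135 CPM in untreated mouse 4 at 3wk, the highest (next 111). Skeletal muscle genes took 22.4%, 22.2% and 8.33% of the counts of these 3 mice, the highest share of each of the 5wk groups and the lowest of the 3wk group. The part of muscle content in these values was not tested.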

How the results depend on the processing

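Most statements rest on few mice, and low counts limit Ifng and Il12b. For 84 member fold changes the other settings gave 564 values in the same direction and on the same side of the threshold, 11 newly past it, 4 no longer past it and 26 reversed, and leaving out 1 mouse gave 699, 6, 16 and 61. At 3wk 89 genes and 1 member were called in edgeR, against 492 and 3 in DESeq2, 209 genes and 2 members with a replicate block (Ifng being newly past the threshold at an adjusted p of 0.0405), 2 members with all 29 libraries in a fit, and 6 to 119 genes and 0 to 1 members without 1 mouse. DESeq2 also called 45 genes for all 5 dual ICI mice, 17 for the uncured mice and 1 for the interaction, where edgeR called 0. For cured mice the 7067 genes and 6 members became 4016 and 3 with the replicate block, and 4491 to 9388 genes and 2 to 7 members without 1 mouse. In untreated mice over time the 1687 genes and 0 members became 3127 genes in DESeq2, 4915 and 2 without untreated mouse 2 and anti-PD1 mouse 5 at 5wk (a setting added after seeing the data), and 654 to 4915 genes and 0 to 2 members without 1 mouse. Between uncured mice and dual ICI at 3wk, the 857 genes and 0 members became 3054 and 3 in DESeq2, 237 genes with all 29 libraries, 3191 and 1 with the replicate block, and 0 to 4006 genes and 0 to 3 members without 1 mouse. The Ifng interaction of -0.81 turned to 0.0065 without untreated mouse 5 at 5wk, with a range of -1.10 to 0.0065 over left-out mice. Without untreated mouse 2 and anti-PD1 mouse 5, Il12a turned to 0.19 with anti-PD1 and 0.50 with anti-CTLA4, and Il12rb2 to 0.61 with anti-CTLA4. Leaving out 1 mouse gave -0.66 to 0.53 and -1.12 to 0.50 for Il12a, and -0.56 to 0.92 and -0.35 to 0.61 for Il12rb2, with anti-PD1 and anti-CTLA4, none called. Uncured against cured mice gave 9668 to 10883 genes and 7 members in every such fit. The causes were not tested. With the block, uncured against untreated mice gave 0.74 for Ifng and -0.24 for Il12a, in place of 1.37 and -1.36, none called. Equal replicate numbers were not shown to pair the mice: correlations between same-numbered mice ran from -0.65 to 0.69, and 2 of 5, 2 of 5, 0 of 5 and 2 of 4 mice in the 4 treated groups correlated best with their own number. So few mice cannot exclude pairing. For most 3wk dual ICI mice the library name holds another number than the replicate number, unlike the names of the untreated mice.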
